A study of Mus musculus with 5 samples.

Results

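The mitochondrial genome of the mouse gives 37 transcripts, and their amounts were compared between bone marrow-cultured mast cells of 2 genotypes. The transcripts were chosen by their symbols, as the 37 rows of 25549 in the deposited results table whose gene name begins with mt-. They comprise 13 mRNAs, 2 rRNAs and 22 tRNAs, and all 37 had a p-value. The cells were mast cells grown from the bone marrow of C57BL/6 mice for 6 to 8 weeks with 50 ng/mL recombinant interleukin-3 and received no treatment. Control cells were Cpa3-Cre (2 samples), with Cre recombinase driven by the promoter of Cpa3, a carboxypeptidase gene of mast cells. The other cells were Cpa3-Cre;miR-9∆fl/∆fl (3 samples), the miR-9 line from here on, so both genotypes hold the Cre transgene. The labels do not say whether this allele raises or removes miR-9, nor the age of the mice, which were matched for age and sex, nor whether samples of a genotype came from separate animals, so p-values may measure technical spread. Total RNA was depleted of cytoplasmic and mitochondrial rRNA and read as strand-marked pairs of 50 bases at a depth that the labels put near 70 M reads per sample.

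Mitochondrial DNA is a small circle that encodes core subunits of the respiratory chain together with the rRNAs and tRNAs that translate them. It is transcribed by a dedicated polymerase into long RNAs that run nearly around the circle on each strand. The tRNAs lie between most of the mRNAs and rRNAs, and cutting at their ends releases the other RNAs. Transcripts read along the plus strand of the reference come from the heavy strand promoters, and those on the minus strand come from the light strand promoter. The plus strand carried both rRNAs, 12 mRNAs and 14 tRNAs, while the minus strand carried mt-Nd6 and 8 tRNAs.

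The genes are packed closely along the genome. All 37 rows had the start, end and strand of GENCODE M21 (GRCm38), and each is a gene of 1 exon on chromosome MT. Of the 36 pairs of neighbours, 9 overlapped, 26 were separated by 0 to 5 bases, and the widest gap was 32 bases. The longest overlap was that of the mRNAs for the ATP synthase subunits 8 and 6, which share 43 bases (MT:7927-7969, plus strand, GRCm38). A full-length read is longer than this overlap, so a read that covers it also covers bases outside it. The shared bases, which belong to both genes, are shown here.
mt-Atp8 and mt-Atp6 overlap: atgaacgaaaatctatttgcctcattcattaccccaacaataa
The mRNAs of mt-Nd4l and mt-Nd4 share 7 bases, and mt-Nd5 and mt-Nd6 overlap by 14 bases on opposite strands. The sources used here do not give how reads in more than 1 gene were counted, nor whether counting used strand, so values of genes that overlap or lie opposite each other are uncertain.

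The tRNAs are 59 to 75 bases long. Those with the highest values, mt-Tl2 and mt-Tm, are shown with mt-Tl1, the other leucine tRNA, and with mt-Tv and mt-Tf, which had the lowest values. Sequences are those of GENCODE M21, 5′ to 3′ along the tRNA, with the anticodon in capitals, found as the middle of a loop of 7 bases whose triplet reads a codon of that amino acid in the vertebrate mitochondrial code.
mt-Tl2: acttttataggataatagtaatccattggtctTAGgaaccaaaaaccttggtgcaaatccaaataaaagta
mt-Tm: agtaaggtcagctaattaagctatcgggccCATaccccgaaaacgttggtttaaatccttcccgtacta
mt-Tl1: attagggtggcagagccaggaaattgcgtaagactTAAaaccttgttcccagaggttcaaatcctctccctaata
mt-Tv: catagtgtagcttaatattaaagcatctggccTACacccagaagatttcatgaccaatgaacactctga
mt-Tf: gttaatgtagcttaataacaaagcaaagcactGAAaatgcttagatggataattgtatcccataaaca
Column purification of the kind used here keeps short RNA poorly. Reads on these rows may therefore come from uncut precursors and from neighbouring transcripts as well as from mature tRNAs, and the part of each was not tested.

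No mitochondrial transcript passed the test across all genes, although most stood higher in the miR-9 line. At a Benjamini-Hochberg adjusted p under 0.05, computed from the authors' deposited table over all 24071 rows with a p-value, 0 of the 37 transcripts were called, where 0.411% of all rows were. At that share, 37 rows would hold few or no calls in any case, so the count of 0 says little about these transcripts. Their adjusted p-values ran from 0.477 to 0.990. Positive log2 fold changes, meaning higher in the miR-9 line, were listed for 31 of 37 transcripts in the authors' deposited table (83.8%), and for 40.2% of all rows with a p-value. Of the 6 negative values, those of mt-Co1, mt-Nd3 and mt-Ts1 turn positive when the median of all rows is subtracted. The median over the 37 was 0.47 in the authors' deposited table and that over all rows was -0.09. Values of at least 0.5 were held by 15 of 37 transcripts in the authors' deposited table, where 6.04% of all rows with a p-value reached that line. An unadjusted p under 0.05 was reached by 5 transcripts, all of them higher (mt-Nd6, mt-Nd4l, mt-Nd2, mt-Tm and mt-Tl2), where 3.87% of all rows passed on the higher side. None of the 37 passed that line on the lower side, where 4.05% of all rows did. All rows were not matched to the 37 transcripts for abundance, and a raised share of positive values was not particular to the mitochondrial genome. Positive values made up 93.4% of nuclear-encoded respiratory chain and ATP synthase subunits in the authors' deposited table. The share was 33.3% for nuclear genes of mitochondrial transcription and DNA maintenance. The 37 rows come from 1 genome and from long shared precursors, so they do not count as 37 separate observations. In bulk RNA, more mitochondrial RNA per cell and more cells rich in it cannot be told apart.

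**Figure D1:**
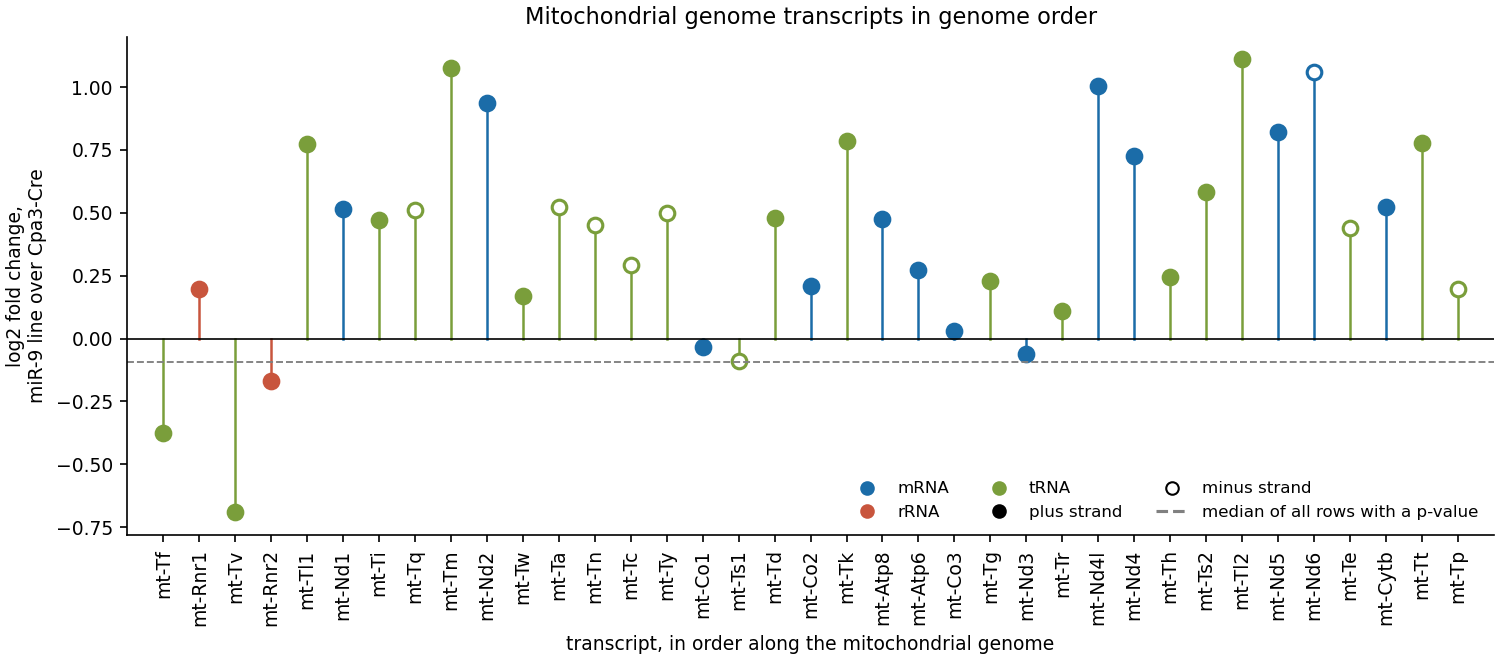
Log2 fold change, miR-9 line over Cpa3-Cre (y axis) for each of the 37 transcripts in their order along the mitochondrial genome (x axis), 1 point per transcript, coloured by class and open for the minus strand. The dashed line is the median of all rows with a p-value, -0.09. Of the first 4 transcripts, a cut that was not planned, 3 lie below 0, while 30 of the remaining 33 lie above it. The other 3, mt-Co1, mt-Ts1 and mt-Nd3, lie above the dashed line.

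Values per library were not analysed here, because the 5 columns that hold them carry names that match no sample's labels. An error for each fold change was therefore read from the authors' deposited table in a conditional way. If each p-value came from a two-sided Wald test, which divides the log2 fold change by its standard error, the standard error follows from the 2 deposited values. On that condition the standard errors ran from 0.226 to 0.470 for the mRNAs, from 0.252 to 0.270 for the rRNAs and from 0.295 to 0.540 for the tRNAs. The design text names DESeq2, whose default is such a test, and also a one-way ANOVA. The condition was not tested, and the intervals given below hold only under it.

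The 5 mRNAs with the highest values all belong to complex I, the NADH dehydrogenase that feeds electrons into the chain, although the lowest of the 13 does as well. mt-Nd6, the complex I subunit encoded on the minus strand (MT:13552-14070), had a log2 value of 1.06 in the authors' deposited table, or 2.09-fold higher (p = 0.0221, adjusted p = 0.477). Its 95% interval under the Wald condition ran from 0.15 to 1.97. mt-Nd4l (MT:9877-10173) was listed at 1.00 in the authors' deposited table, or 2.01-fold higher (p = 0.0258, adjusted p = 0.506). mt-Nd2 (MT:3914-4951) was listed at 0.94 in the authors' deposited table, or 1.91-fold higher (p = 0.0465, adjusted p = 0.617). These 3 are the mRNAs with an unadjusted p under 0.05, and mt-Nd1, at 0.51 in the authors' deposited table, lay just outside it (p = 0.0524).

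The other complex I mRNAs included both high values and the lowest of all 13. mt-Nd5, the longest of the mRNAs at 1824 bases, was listed at 0.82 (p = 0.0587) and mt-Nd4 at 0.73 (p = 0.0847) in the authors' deposited table. mt-Nd3 was listed at -0.06 in the authors' deposited table (p = 0.811). Over the 7 complex I mRNAs, 6 values were positive and the median was 0.82 in the authors' deposited table. The value of mt-Nd3 had the opposite sign to those of its 6 partners, though not when centred on all rows. A difference between transcripts could not be tested without values per library.

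The mRNAs of complex IV, the cytochrome c oxidase that passes electrons to oxygen, lay near 0. mt-Co1, for its catalytic subunit (MT:5328-6872), was listed at -0.03 in the authors' deposited table (p = 0.897), with an interval of -0.54 to 0.48 under the Wald condition. mt-Co2, which takes up the electrons, was listed at 0.21 (p = 0.357) and mt-Co3 at 0.03 (p = 0.903) in the authors' deposited table. The interval of mt-Co1 overlapped those of all 6 complex I mRNAs with positive values. The ATP synthase mRNAs mt-Atp8 (0.47, p = 0.107) and mt-Atp6 (0.27, p = 0.280) and the cytochrome b mRNA mt-Cytb of complex III (0.52, p = 0.106) all had positive values above those of the 3 complex IV mRNAs in the authors' deposited table. The mRNAs with higher values also had wider errors under that condition. The standard error was 0.421 to 0.470 for mt-Nd4, mt-Nd5, mt-Nd4l, mt-Nd6 and mt-Nd2, and 0.226 to 0.322 for the other 8 mRNAs.

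**Figure D2:**
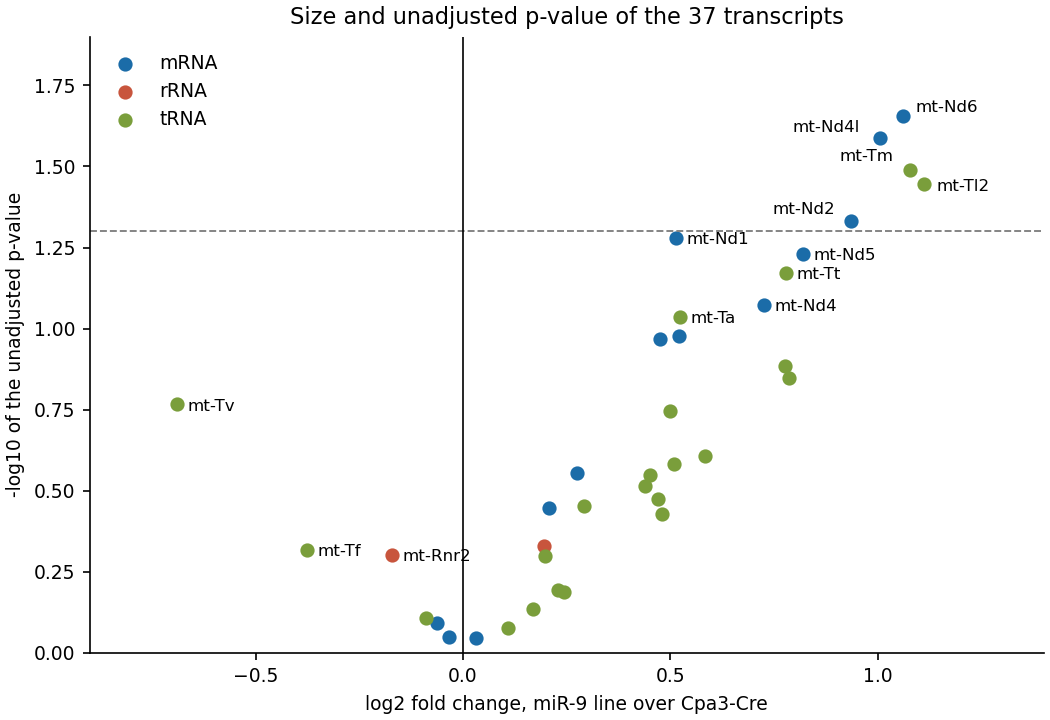
Log2 fold change, miR-9 line over Cpa3-Cre (x axis) against -log10 of the authors' unadjusted p-value (y axis), 1 point per mitochondrial transcript, coloured by class, with those of unadjusted p under 0.1 and the 3 lowest labelled. The dashed line marks an unadjusted p of 0.05, and the 5 transcripts above it all lie between 0.94 and 1.11.

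The ribosomal RNAs of the mitochondrion lay on either side of 0. mt-Rnr1, the small subunit rRNA (MT:70-1024), was listed at 0.20 in the authors' deposited table (p = 0.470). mt-Rnr2, the large subunit rRNA (MT:1094-2675), was listed at -0.17 in the authors' deposited table (p = 0.498). Both rRNAs were targets of the depletion step, so these rows hold what escaped it, and the part of the depletion in these values was not tested. The tRNAs that flank mt-Rnr1 had the lowest values of the 37 transcripts. mt-Tv, the valine tRNA between the rRNAs, was listed at -0.69 in the authors' deposited table (p = 0.171), and mt-Tf, the phenylalanine tRNA that opens the plus strand transcript, at -0.38 (p = 0.481). In this stretch from mt-Tf to mt-Rnr2, 3 of 4 values were negative with a median of -0.27 in the authors' deposited table. Beyond it, 22 of 24 plus strand transcripts had positive values with a median of 0.50 in the authors' deposited table. The cut at the end of mt-Rnr2 was not among the planned comparisons, and the difference between the stretches was not tested.

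The tRNAs as a class lay close to the mRNAs, with wider errors. Of 22 tRNAs, 19 had positive values and the median was 0.46 in the authors' deposited table, against 11 of 13 and 0.51 for the mRNAs. mt-Tl2, which reads the CUN leucine codons (MT:11671-11741), was listed at 1.11 in the authors' deposited table, or 2.16-fold higher (p = 0.0359, adjusted p = 0.566). mt-Tm, the methionine tRNA (MT:3845-3913), was listed at 1.08 in the authors' deposited table, or 2.11-fold higher (p = 0.0323, adjusted p = 0.547). Under the Wald condition their intervals ran from 0.07 to 2.15 and from 0.09 to 2.06, so the data leave their size poorly set.

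Each of these tRNAs, and mt-Tl1, directly precedes a complex I mRNA with a positive value. mt-Tm abuts mt-Nd2 (0.94), mt-Tl2 abuts mt-Nd5 (0.82) and mt-Tl1, at 0.78 (p = 0.131), abuts mt-Nd1 (0.51) in the authors' deposited table. A tRNA and the mRNA after it did not always have similar values. mt-Tr, the arginine tRNA before mt-Nd4l (1.00), was listed at 0.11 and mt-Tk, the lysine tRNA before mt-Atp8 (0.47), at 0.79 in the authors' deposited table. Over the 13 plus strand tRNAs that have an mRNA after them, the rank correlation of the tRNA's value with that mRNA's value was 0.18. That figure is a description, since neighbours share precursors and reads.

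The remaining plus strand tRNAs had values from 0.17 to 0.78 in the authors' deposited table. The threonine tRNA mt-Tt was listed at 0.78 (p = 0.0675), the tRNA for the AGY serine codons, mt-Ts2, at 0.58 (p = 0.248), the aspartate tRNA mt-Td at 0.48 (p = 0.374) and the isoleucine tRNA mt-Ti at 0.47 (p = 0.335) in the authors' deposited table. The histidine tRNA mt-Th was listed at 0.24, the glycine tRNA mt-Tg at 0.23 and the tryptophan tRNA mt-Tw at 0.17 in the authors' deposited table, with p-values of 0.648, 0.642 and 0.733. None of these tRNAs reached an unadjusted p of 0.05.

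The minus strand tRNAs, fewer in number, spanned a narrower range than those of the plus strand. The 8 of them ran from -0.09 to 0.52 with a median of 0.44 in the authors' deposited table, against -0.69 to 1.11 and a median of 0.48 for the 14 on the plus strand. The highest were the alanine tRNA mt-Ta at 0.52 (p = 0.0920), the glutamine tRNA mt-Tq at 0.51 (p = 0.261) and the tyrosine tRNA mt-Ty at 0.50 (p = 0.179) in the authors' deposited table. The asparagine tRNA mt-Tn was listed at 0.45, the glutamate tRNA mt-Te at 0.44, the cysteine tRNA mt-Tc at 0.29 and the proline tRNA mt-Tp at 0.20 in the authors' deposited table. The 1 negative value was that of mt-Ts1, the tRNA for the UCN serine codons, at -0.09 in the authors' deposited table (p = 0.781). mt-Te abuts mt-Nd6 on the same strand and was listed at 0.44 where mt-Nd6 was listed at 1.06 in the authors' deposited table. By strand as a whole, 8 of 9 minus strand values and 23 of 28 plus strand values were positive, with medians of 0.45 and 0.47 in the authors' deposited table. No test of the strands against each other was run.

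Base content and length gave weak rank correlations among the members. Across the 13 mRNAs the rank correlation of log2 fold change was 0.03 with length and -0.05 with GC content, and across the 22 tRNAs it was 0.03 with GC content. Along the plus strand, the rank correlation of the 12 mRNA values with position was 0.26. These are descriptions over transcripts that share libraries and precursors.

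Copies of mitochondrial DNA inserted in the nuclear genome carry near-identical sequence, and some of their gene models are rows of the same table. A search of GENCODE M21 pseudogene transcripts, at 90% identity or more over at least 40 bases, found 17 gene models like a mitochondrial transcript, of which 9 had a row and 8 a p-value. On chromosome 1, Gm10222 (1:24612404-24612700, GRCm38, minus strand) is identical to mt-Nd4l over 294 bases, and was listed at 1.05 in the authors' deposited table (p = 0.0264) where mt-Nd4l was listed at 1.00. On chromosome 2, an insertion on the minus strand holds copies of mt-Nd2, mt-Co1 and mt-Co2. Gm13339 (2:22590024-22590533), 96.7% identical to the second part of mt-Nd2, was listed at 1.27 (p = 0.0153, adjusted p = 0.420) where mt-Nd2 was listed at 0.94 in the authors' deposited table. Gm13340, like mt-Co1, was listed at -0.01 where mt-Co1 was listed at -0.03 in the authors' deposited table. Gm13341, like mt-Co2, was listed at 0.14 where mt-Co2 was listed at 0.21 in the authors' deposited table. Gm13339 and Gm10222 were the copies with an unadjusted p under 0.05.

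The other copies lay farther from their member by identity, though not always by value. On chromosome 4, Gm11408 (4:80003396-80003914, minus strand), 93.6% identical to mt-Nd6, was listed at -0.31 (p = 0.565) where mt-Nd6 was listed at 1.06 in the authors' deposited table. Its neighbours there, Gm11407 and Gm11410, was listed at 0.30 and 0.31 where mt-Nd5 was listed at 0.82 and mt-Cytb at 0.52 in the authors' deposited table. Gm4076 on chromosome 13, 95.2% identical to part of mt-Nd5, was listed at 0.63 in the authors' deposited table. That identity spans 954 aligned bases of the GENCODE M21 transcript, whereas the deposited row is 516 bases long, so the models differ. Gm11512 on chromosome 11, 90.7% identical to part of mt-Co1, was listed at -0.02 in the authors' deposited table and had no p-value. It had the lowest identity of the 9, and both it and mt-Co1 (-0.03) lay near 0. For mt-Nd6 and mt-Nd2, which had an unadjusted p under 0.05 and a copy that differs in sequence, the first 100 aligned bases are shown, with differing bases in capitals, so that the spacing of differences can be set against reads of 50 bases. The mt-Nd6 stretch starts at base 1 of that mRNA and the mt-Nd2 stretch at base 529, both 5′ to 3′ along the mRNA.
mt-Nd6: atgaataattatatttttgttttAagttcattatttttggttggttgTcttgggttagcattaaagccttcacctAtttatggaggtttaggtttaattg
Gm11408: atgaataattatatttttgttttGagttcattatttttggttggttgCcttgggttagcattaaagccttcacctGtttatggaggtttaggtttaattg
mt-Nd2: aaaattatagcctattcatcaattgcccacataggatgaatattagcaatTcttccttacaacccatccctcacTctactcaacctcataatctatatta
Gm13339: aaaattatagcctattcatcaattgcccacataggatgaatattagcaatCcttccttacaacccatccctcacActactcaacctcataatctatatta

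The share of each member that a 50-base read could not tell from a nuclear model differed widely. For mt-Co2, mt-Co3, mt-Atp6, mt-Nd4l and mt-Nd3, 98.0 to 100% of their 50-base windows occurred unchanged in GENCODE M21 transcripts of nuclear gene models. For mt-Nd4 it was 62.2%, for mt-Co1 51.1%, for mt-Nd2 8.19% and for mt-Nd5 7.61%, and for mt-Nd1, mt-Atp8, mt-Nd6 and mt-Cytb it was 0%. Only annotated transcripts were searched, so copies without a gene model were missed. This may affect mt-Atp8, because the mRNAs on either side of it, mt-Co2 and mt-Atp6, have copies of 100% identity (Gm28661 and Gm10925). The place of mt-Atp8 below the 50% line used next is therefore uncertain. Windows were matched singly and on either strand, whereas the reads were strand-marked pairs. A mate may therefore place some reads that these shares count as not told apart. The 6 mRNAs with under 50% of windows shared had values of 0.47 to 1.06 and a median of 0.67 in the authors' deposited table. The 7 with 50% or more had values of -0.06 to 1.00 and a median of 0.21 in the authors' deposited table. Among these 7, mt-Nd4l and mt-Nd4 had the highest values, at 1.00 and 0.73 in the authors' deposited table. The 50% line was chosen after seeing the data, and all complex IV mRNAs fall among the 7. The sources used here do not give how reads with several matches were treated, and the part of shared sequence in these values was not tested. With annotated transcripts, the rRNA mt-Rnr2 shared 1.04% of its windows and mt-Rnr1 and the 22 tRNAs shared 0%. Some tRNAs lie beside mRNAs with near-identical copies, such as mt-Tk after mt-Co2 and mt-Tg between mt-Co3 and mt-Nd3. Their 0% therefore does not show that they lack nuclear copies.

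**Figure D3:**
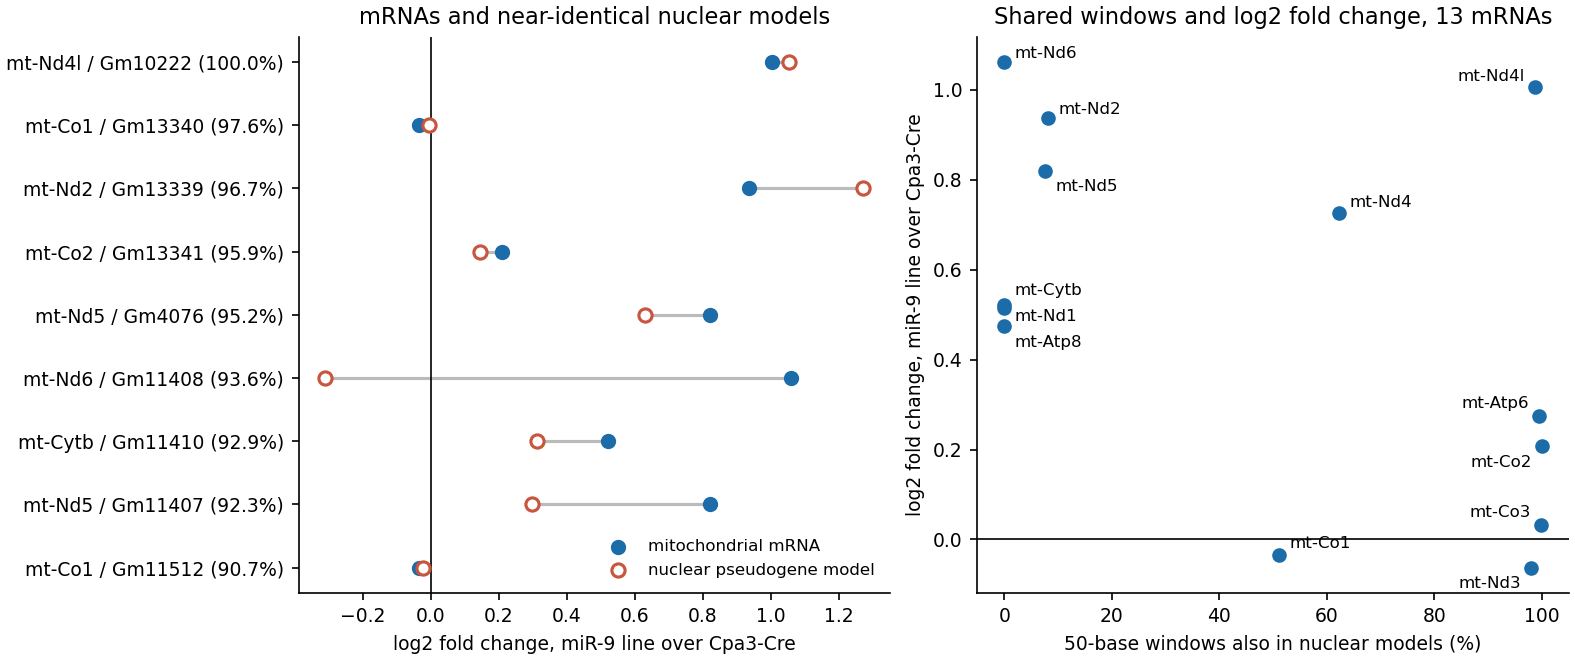
Left, log2 fold change, miR-9 line over Cpa3-Cre, (x axis) of each of 9 nuclear pseudogene models (open) and of the mitochondrial mRNA it resembles (filled), ordered by percent identity, given in brackets. Right, log2 fold change of the 13 mRNAs (y axis) against the percent of their 50-base windows that also occur in nuclear gene models (x axis); 5 of the 7 mRNAs at 50% or more lie between -0.06 and 0.27.

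Nuclear genes that supply the mitochondrion were counted in lists, none of which had a called member. With 0.411% of all rows called, lists of this size would hold few or no calls in any case, so a count of 0 says little about them. Their counts of positive values stand beside 40.2% of all rows with a p-value, and those at an unadjusted p under 0.05 beside 3.87% of all rows on the higher side and 4.05% on the lower side. Subunits of the respiratory chain and ATP synthase encoded in the nucleus had positive values in 71 of 76 genes with a p-value. Of the 76, 74 lay above the median of all rows, and their median was 0.24 in the authors' deposited table. Among them 0 passed at an adjusted p under 0.05, as at an unadjusted p under 0.05. By complex, the nuclear medians in the authors' deposited table were 0.21 for complex I (36 genes), 0.28 for complex III (9 genes), 0.20 for complex IV (11 genes) and 0.31 for complex V (15 genes). The mitochondrial mRNAs of the same complexes had medians of 0.82, 0.52, 0.03 and 0.37 in the authors' deposited table, over 7, 1, 3 and 2 transcripts. The smallest p-values of the nuclear subunits were those of Atp5o (0.50, p = 0.0566), Ndufa4 (0.55, p = 0.0662) and Cox5a (0.68, p = 0.0807) in the authors' deposited table. Ndufa4 was counted with complex I by its symbol, although the protein is now placed in complex IV.

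Genes for the mitochondrial ribosome, which translates the 13 mRNAs, were positive in 62 of 76 cases. They lay above the median of all rows in 66, with a median of 0.15 in the authors' deposited table. None passed over all genes, and Mrpl18 (0.61, p = 0.00548, adjusted p = 0.253) and Mrps2 (0.40, p = 0.0337) had an unadjusted p under 0.05 in the authors' deposited table, with Mrpl17 next (0.40, p = 0.0506). Enzymes that load mitochondrial tRNAs with amino acids were positive in 15 of 20 cases, and above the median of all rows in 17. Their median was 0.11 in the authors' deposited table, and 0 passed either threshold. Their smallest p-values were those of Kars (0.37, p = 0.0762), which also serves the cytosol, Cars2 (0.43, p = 0.0904) and Vars2 (0.30, p = 0.212) in the authors' deposited table.

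The machinery that copies, transcribes and processes the mitochondrial genome had list medians near 0, both above the -0.09 of all rows. Transcription and DNA maintenance genes were positive in 6 of 18 cases, and above the median of all rows in 10, with a median of -0.07 in the authors' deposited table, and 0 passed either threshold. Polrmt, the mitochondrial RNA polymerase, was listed at -0.23 (p = 0.312) and Tfam, which packs mitochondrial DNA and starts its transcription, at 0.09 (p = 0.653) in the authors' deposited table. The smallest p-values of that list were those of Rrm2b (-0.34, p = 0.0955), Polg, the mitochondrial DNA polymerase (0.36, p = 0.193), and Mpv17 (-0.20, p = 0.255) in the authors' deposited table. RNA processing, stability and decay genes were positive in 14 of 22 cases, and above the median of all rows in 20, with a median of 0.03 in the authors' deposited table, and 0 passed over all genes. Lrpprc and Slirp, partners that stabilise mitochondrial mRNAs, was listed at 0.08 and 0.04 in the authors' deposited table. Fastkd3 (0.53, p = 0.0276) was the 1 gene of this list with an unadjusted p under 0.05, followed by Rexo2 (0.40, p = 0.0893) and Ptcd2 (0.27, p = 0.241) in the authors' deposited table.

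Modification enzymes gave similar counts. Those of mitochondrial tRNA were positive in 9 of 18 cases, and above the median of all rows in 13. Their median was 0.00053 in the authors' deposited table, and 0 passed over all genes. Nsun3, which methylates the anticodon of the methionine tRNA mt-Tm, was listed at 0.44 (p = 0.0113, adjusted p = 0.360), Pus1, a pseudouridine synthase, at 0.44 (p = 0.0332) and Nsun2, a cytosine methyltransferase, at 0.35 (p = 0.0644) in the authors' deposited table. Genes for rRNA modification and ribosome assembly were positive in 7 of 18 cases, and above the median of all rows in 12. Their median was -0.05 in the authors' deposited table, and 0 passed either threshold. Tfb1m, which methylates the small rRNA mt-Rnr1, was listed at 0.39 (p = 0.106), Rpusd3 at 0.31 (p = 0.209) and Rbfa, a ribosome assembly factor, at 0.39 (p = 0.216) in the authors' deposited table.

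**Figure D4:**
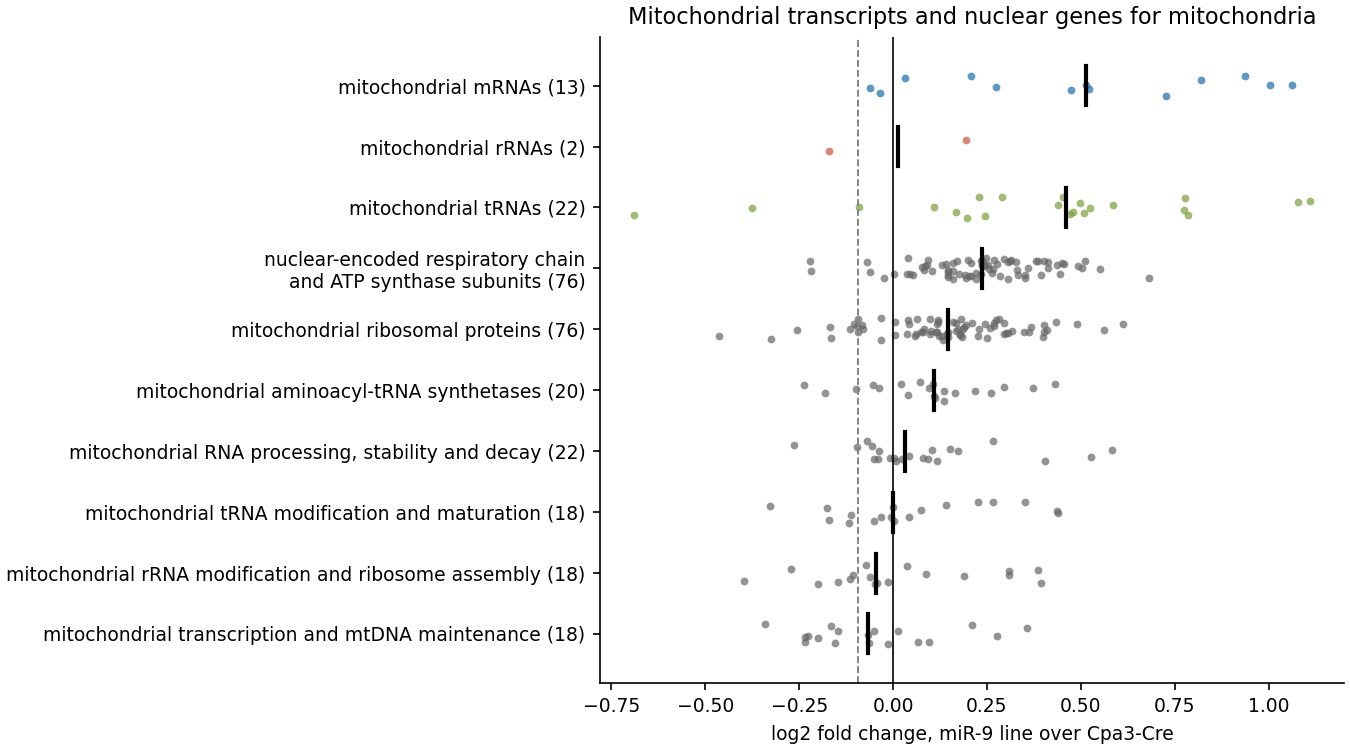
Log2 fold change, miR-9 line over Cpa3-Cre (x axis) for the mitochondrial mRNAs, rRNAs and tRNAs and for 7 lists of nuclear genes that serve the mitochondrion (rows, with the number of genes), 1 point per gene, a black bar at each median and a dashed line at the median of all rows, -0.09. The medians of mitochondrial mRNAs and tRNAs, 0.51 and 0.46, lie to the right of those of all 7 nuclear lists, which run from -0.07 to 0.24.

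Of 8 mast cell markers, Kit (-0.04), Fcer1a (0.09), Ms4a2 (0.10), Gata2 (-0.06), Hdc (0.03), Cpa3 (0.42) and Fcer1g (0.46) were not called from the authors' deposited table, while Tpsb2, a tryptase gene, was (1.60, adjusted p = 0.0149). Their levels were not analysed here, so the labelled cell type could not be checked by expression.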

How the data were processed

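RNA of 2 Cpa3-Cre samples and 3 Cpa3-Cre;miR-9∆fl/∆fl samples, grouped by title, entered the authors' comparison. The authors deposited 1 table of 25549 gene models with a log2 fold change, that change as a signed linear ratio and an unadjusted p-value, per the file headers. The p-value is empty in 1478 rows. The builds GRCm38 and mm10 and the tools HTSeq, STAR, Cuffdiff, DESeq and DESeq2 are named in the submitters' processing notes. Versions, roles, filters and any shrinkage of folds, which lowers those of scarce genes, are not stated there. The 5 columns of values per library match no sample's labels and were used in no step, so depth beyond the stated reads, errors between replicates and the planned edgeR alternatives were not available.

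Benjamini-Hochberg adjustment ran over the 24071 deposited p-values (statsmodels 0.14.6). Implied standard errors used scipy 1.17.1, and copies were sought with BLAST+ 2.17.0 among GENCODE M21 transcripts. The Benjamini-Hochberg calls and the implied standard errors were tested on simulated data, and the anticodon search on a made sequence. The simulated p-values were drawn under the Wald condition, so that condition itself was not tested. Other steps were not tested in this way. Nsun4 was left out because several rows carry its symbol. Lists were described by counts and medians, with no list test. Every member could be named, and of each nuclear list the 3 smallest p-values plus Polrmt, Tfam, Lrpprc and Slirp. The members and lists were chosen with earlier results of these data known.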

Additional observations from a re-analysis of the deposited data

How the results depend on the processing

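The count of called transcripts was 0 at the 0.0001 threshold of the design text, at an adjusted p under 0.10, with Benjamini-Yekutieli adjustment (smallest adjusted p of 1) and when only the 15 members of at least 200 bases and other rows of that length were adjusted (smallest adjusted p of 0.450). Since few rows of the whole table were called, a count of 0 in so small a group says little under any of these settings. Centring on the median of all rows moved the medians to 0.61 for mRNAs, 0.10 for rRNAs and 0.55 for tRNAs, and to 0.57 and 0.54 for plus and minus strand transcripts. It also turned mt-Co1, mt-Nd3 and mt-Ts1 from just below 0 to 0.06, 0.03 and 0.0025. Without mt-Nd6, mt-Atp8 and mt-Nd4l, the mRNA median was 0.39. By an alternative chosen after seeing the data, it was 0.67 over mRNAs with under 50% of windows in nuclear models and 0.21 over the others; the cause was not tested. No paired analysis was possible because the values come from a deposited comparison and the library columns carry no replicate numbers. Leaving out samples, other normalizations, filters and pseudocounts were not run for the same reason. Depth per gene is unknown.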
